A study of Mus musculus with 98 samples.

Results

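Among single innate lymphoid cells (ILCs) regenerated in mice from pluripotent stem cells, 32 libraries were split by whether they held a transcript of C1qc, the gene of the C chain of complement C1q. The 32 cells are the regenerated cells whose titles carry no second number. They are 32 of 67 regenerated ILCs and of 98 expression columns in all. Cells were selected on C1qc itself: 17 cells with C1qc at 1 TPM or more (TPM, a length-scaled share of a library's transcripts) formed the first set and 15 cells under 1 TPM the second. The genes other than C1qc were then compared between the sets, to see which macrophage, MHC class II and ILC3 genes go with it. ILC3s are the ILCs that make IL-22 in the gut.

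The regenerated cells, called R9-ILCs in the labels, were CD45.2+ GFP+ Lin- CD127+ cells of the C57BL/6 strain. They had been sorted from the intestine of Rag2-/-Il2rg-/- mice, which lack lymphocytes of their own, 3 weeks after the recipients were transplanted. Both sets come from this 1 group and share genotype, host and time. The wild-type ILCs of the series were CD45.2+ Lin- CD127+ cells from the intestine of C57BL/6 mice aged 8 weeks. The labels name no animal for any cell and do not say what the ending of a title means. Each set therefore counted as 1 sample, no test was made between sets, and every difference given here lacks a replicate check.

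C1q starts the classical complement pathway: it binds immune complexes and dying cells and carries the proteases C1r and C1s. Its A, B and C chains are made together, mainly by tissue macrophages and some dendritic cells, and are joined in a single protein. The intestine is rich in macrophages that make C1q. ILC3s are lymphoid cells; part of them, the lymphoid-tissue-inducer-like cells with CCR6, carry MHC class II.

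C1qc TPM spanned 12.1 to 449 in the 17 cells with it, with a median of 119, and was listed at 0 in all 15 cells without it. The value just inside the limit was 12.1 TPM and the values just outside were 0, so limits of 1 TPM, 10 TPM and anything above 0 gave the same sets. An exact 0 in these tables can be a failed estimate and not an absent transcript: Gapdh, which every cell uses, reached 1 TPM in 6 of 17 cells with C1qc and 2 of 15 cells without. TPM keeps no depth, so the number of reads behind a value is unknown. As the nearest view of it, the genes that reached 1 TPM in a cell numbered 1734 to 2975 with a median of 2090 in cells with C1qc. In cells without C1qc they numbered 1187 to 2989 with a median of 2075. A single gene held at least 10% of all TPM in 15 of 17 cells with C1qc and in 11 of 15 without. Such leading genes differed from cell to cell and included Ifngr1 at 44.3% in cell 35, which had C1qc, and Fabp1, an enterocyte gene, at 43.6% in cell 19, which did not.

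The A and B chains were found in both sets, in similar shares of cells. C1qa was detected, at 1 TPM or more, in 5 of 17 cells with C1qc (29.4%, exact 95% binomial interval 10.3% to 56.0%). It was detected in 5 of 15 cells without (33.3%, interval 11.8% to 61.6%). C1qb was detected in 8 of 17 cells with C1qc (47.1%, interval 22.98% to 72.2%) and in 5 of 15 cells without (33.3%, interval 11.8% to 61.6%). The intervals overlap for both chains; here and below they cover counting error only.

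In the cells with C1qc, C1qa stood at 305 TPM in cell 16, 134 in cell 30, 119 in cell 41, 87.0 in cell 17 and 68.1 in cell 15. In the cells without C1qc it stood at 311 TPM in cell 1, 164 in cell 19, 115 in cell 3, 65.3 in cell 8 and 18.9 in cell 22. The C1qa-positive cells of both sets thus reached the same height, and mean C1qa was 41.9 TPM in cells with C1qc and 44.9 TPM in cells without, a difference of -0.14 in mean log2(TPM + 1). C1qb stood at 479 TPM in cell 16 and 251 in cell 21, and between 16.5 and 62.1 in the 6 other cells with both C1qb and C1qc. In the cells without C1qc, C1qb stood at 371 TPM in cell 5, 272 in cell 4, 258 in cell 39, 62.3 in cell 8 and 33.2 in cell 19. Mean C1qb was 56.1 TPM in cells with C1qc and 66.4 TPM in cells without, while the log2 difference, 0.43, had the opposite sign. Log2 differences here are on the log2(TPM + 1) scale, cells with minus cells without, and this scale understates the change of low genes.

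All 3 chains were detected together in 3 cells, numbers 16, 17 and 30. Of the 17 cells with C1qc, 7 had no other chain, 7 had exactly 2 chains and 10 had C1qa or C1qb. Of the 15 cells without C1qc, 8 had C1qa or C1qb and 7 had no chain at all. Any chain was therefore present in 25 of the 32 cells. Among the 10 cells with C1qc at 100 TPM or more, 4 had C1qa and 5 had C1qb, and among the 7 with less C1qc, 1 had C1qa and 3 had C1qb. The 3 genes lie side by side on the minus strand of chromosome 4 in GRCm38: C1qb at 136880129 to 136886187, C1qc at 136889804 to 136893065 and C1qa at 136895917 to 136898803, a span of 18675 bases.

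**Figure D1:**
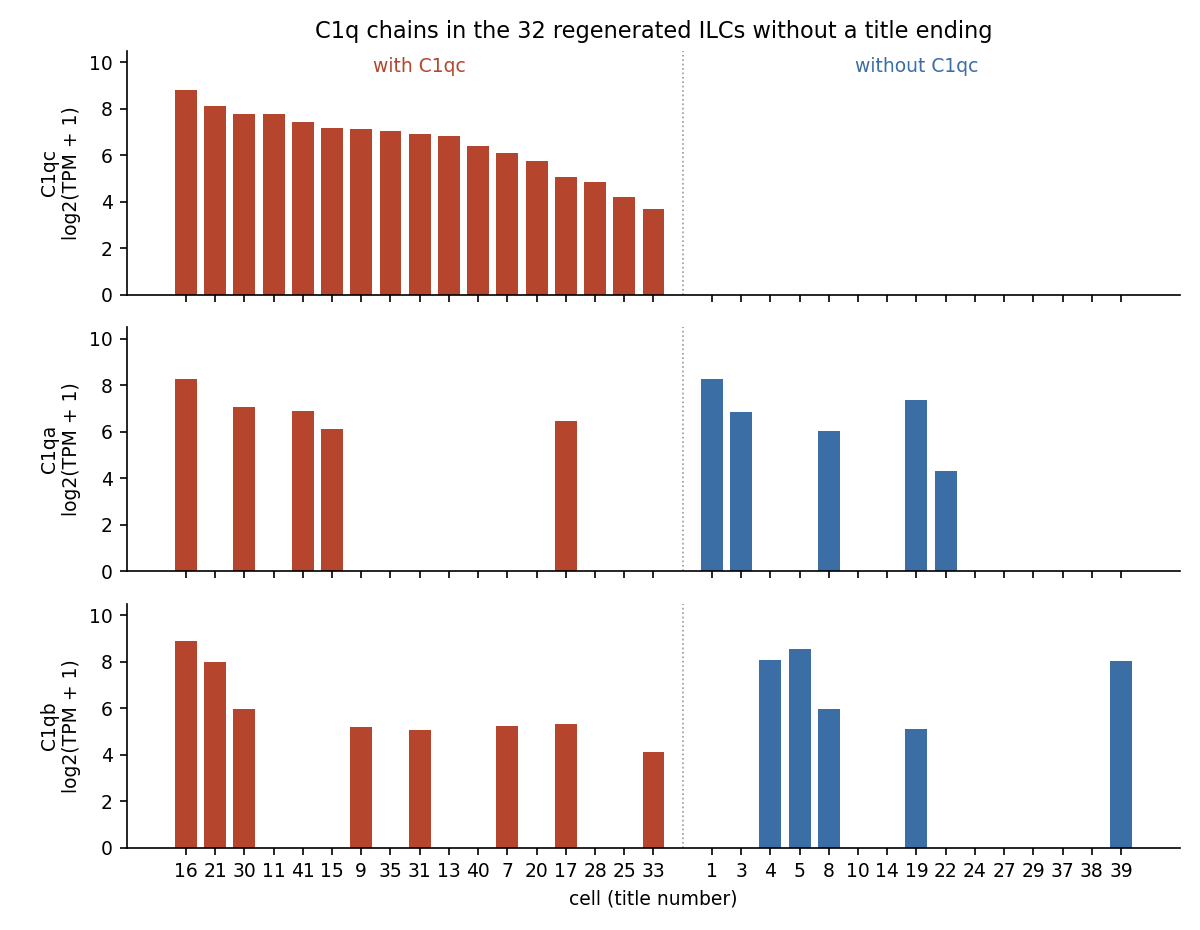
Bars give C1qc, C1qa and C1qb as log2(TPM + 1) in each of the 32 cells, the 17 cells with C1qc on the left in order of C1qc and the 15 cells without on the right. C1qa is above 0 in 5 cells of each set and C1qb in 8 cells with C1qc and 5 without.

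In the cells with C1qc, its height ran along the level of the genes found in nearly every cell. That level was taken as the median, over the 248 genes found in at least 90% of the 32 cells, of a cell's TPM relative to the gene's geometric mean over cells. It ran from 0.128 to 2.76 with a median of 0.828 in cells with C1qc, and from 0.193 to 3.97 with a median of 1.35 in cells without, so both sets held cells of low and high level. Among the 17 cells with C1qc, the rank correlation of C1qc TPM with this level was 0.95 (Spearman's rho). For C1qa it was 0.83 over the 10 cells with C1qa, and for C1qb 0.73 over the 13 cells with C1qb. C1qc is not among the genes that define the level, but all points share the TPM scale of their library, and the figures are a description with no test.

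Divided by this level, C1qc stood between 51.6 and 183 TPM per unit of level, with a median of 90.1, in the 17 cells, a spread of 3.55-fold from lowest to highest, against 37.1-fold before. Cell 33, lowest in C1qc at 12.1 TPM, had the lowest level, 0.128, and cell 16, highest at 449 TPM, had the highest level of its set, 2.76. The summed TPM of the ILC3 genes moved with the level nearly one to one: rho was 0.96 in cells with C1qc and 0.97 in cells without, and 7 of the ILC3 genes are among the common genes. C1qc equalled 1.27% to 4.65% of that ILC3 sum in the 17 cells. The summed MHC class II genes (rho 0.94 with C1qc, 0.89 without), mast cell genes (0.94 and 0.94) and macrophage markers (0.71 and 0.86) ran along the same level, with 2, 2 and 1 members among the common genes. The sums of the epithelial and housekeeping genes did not, and the sums of the remaining lists were not set against the level. For the epithelial genes rho was -0.29 in cells with C1qc and -0.20 in cells without. For the housekeeping genes it was 0.10 in cells with C1qc and 0.16 in cells without, although 9 of them are among the common genes.

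**Figure D2:**
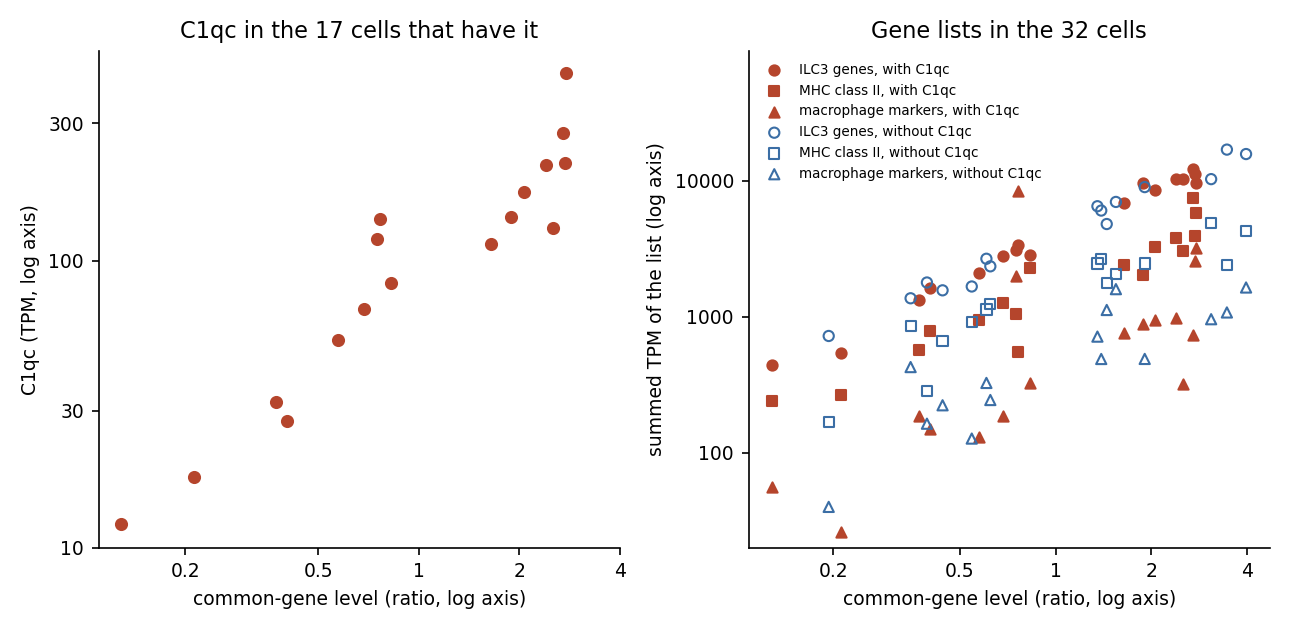
The left panel plots C1qc TPM against the common-gene level for the 17 cells with C1qc, and the right panel plots the summed TPM of 3 gene lists for cells with C1qc (filled) and without (open), all axes logarithmic. C1qc lies close to 1 line (rho 0.95), and the open and filled symbols of the ILC3 and MHC class II genes lie along the same band. For the macrophage markers, cells 9 and 31 with C1qc lie above the band of the other cells.

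C1qc separated the sets by the rule, and the other genes compared overlapped between them. Of 23420 genes in the tables, 4739 reached 1 TPM in at least 5 of the 32 cells and were compared, C1qc left out. Mean log2(TPM + 1) was higher by 1 or more in cells with C1qc for 725 genes (15.3%) and lower by 1 or more for 529 genes (11.2%), and the median difference was 0.10. These shares are the background for every list below. The ranges of the sets overlapped for every gene compared, 39 genes were found only in cells with C1qc and 16 only in cells without. Only 111 of the genes compared were found in all 32 cells. A gene at 0 in a cell of each set overlaps in any case, so the overlap says little about which genes go with C1qc.

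Most macrophage markers were found in neither set, and the same held for most genes. Of 23420 genes in the tables, 9404 besides C1qc reached 1 TPM in at least 1 of the 32 cells, so absence is not particular to this list. Of 21 markers in the tables, 11 were listed at 0 in all 32 cells, among them Cd14, Mertk, Cd163, Ms4a7, Pf4, Trem2, Timd4, Cd209f, Vsig4 and Clec4n. They include defining genes of tissue macrophages, such as Mertk, a receptor for dying cells, and Cd163, a haemoglobin scavenger receptor. Another 7 reached 1 TPM in only 1 to 4 cells. Csf1r, the receptor for the macrophage growth factor CSF1, was at 55.8 TPM in cell 15 and 11.7 in cell 20, which had C1qc, and at 16.9 in cell 4 and 7.0 in cell 8, which did not. Fcgr3, an IgG receptor, was found in 3 of 17 cells with C1qc and 1 of 15 without, and Mrc1, the mannose receptor, likewise in 3 and 1. Clec7a, the receptor for fungal glucan, was found in 0 of 17 cells with C1qc (interval up to 19.5%) and 3 of 15 without. Fcgr1 was found in cell 30, Aif1 in cell 41 and Cx3cr1 in cells 11 and 30 alone, all with C1qc.

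Only 3 macrophage markers were common enough to compare: 1 of them was higher by 1 or more, none was lower by as much, and their median difference was 0.49, beside 0.10 over all genes. Single cells moved that median: it was 0.98, 0.87 and 0.30 without cells 13, 30 and 16, which had C1qc. It was -0.07, 1.09, 0.96, 0.31 and 1.35 without cells 1, 5, 8, 37 and 39, which did not. Lyz2, which encodes lysozyme, was nearly universal, in 17 of 17 cells with C1qc and 14 of 15 without. Its TPM ran from 23.96 through a median of 322 to 2688 in cells with C1qc, and from 0 through 347 to 1103 in cells without, a log2 difference of 0.49. The ranges of Lyz2 overlap, but cells 16, 31 and 30 with C1qc, at 2688, 1724 and 1702 TPM, lie above every cell without it. The median is the lower one in cells with C1qc.

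Apoe, a lipid carrier made in quantity by macrophages, had the largest difference of the list, 1.70. It was found in 9 of 17 cells with C1qc (52.9%, interval 27.8% to 77.0%) and 5 of 15 without (33.3%, interval 11.8% to 61.6%). Its TPM ran from 0 through a median of 31.3 to 8003 in cells with C1qc, and from 0 through a median of 0 to 770 in cells without. Cell 9 alone held 83.7% of all Apoe in cells with C1qc, and the difference was 1.66 when each set was taken without its highest cell. Cd68, a lysosomal protein of phagocytes, was found in 2 of 17 cells with C1qc and 3 of 15 without, with a difference of -0.70. Cells 30 and 13 held 323 and 179 TPM of it with C1qc, and cells 5, 39 and 8 held 566, 402 and 105 TPM without.

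The number of macrophage markers found per cell was 1 to 5 with a median of 2 in cells with C1qc, and 1 to 4 with a median of 2 in cells without. Cell 30, with all 3 C1q chains, reached 5: Lyz2 at 1702 TPM, Apoe at 495, Cd68 at 323, Fcgr1 at 27.2 and Cx3cr1 at 25.2. Cell 16, with the most C1qc, had Lyz2 at 2688 TPM, Apoe at 485 and Mrc1 at 23.5, and Csf1r and Cd68 were listed at 0 in it. Summed macrophage marker TPM ran from 26.1 through a median of 727 to 8320.4 in cells with C1qc, and from 39.99 through 489 to 1638 in cells without. Divided by the common-gene level, the sum stood between 123 and 10887 with a median of 434 in cells with C1qc, and between 207 and 1218 with a median of 412 in cells without. Cell 9 (10887) and cell 31 (2667), both with C1qc, lay above every cell without it. In each, 1 gene made most of the sum: Apoe at 8003 TPM in cell 9 and Lyz2 at 1724 TPM in cell 31. Cell 9 also held 185920 TPM of epithelial genes, and its leading gene was Fabp1. The source of these transcripts was not tested.

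Genes that macrophages share with other myeloid cells and with ILCs were found in both sets where they were common enough to compare. Of 9 phagocyte signalling and oxidase genes compared, 1 was higher by 1 or more and none lower, and their median was 0.14. That gene was Itgb2, the common chain of the leukocyte integrins, in 13 of 17 cells with C1qc and 8 of 15 without (difference 1.02). It was -0.15 when the 15 cells without C1qc were cut to the 11 that lie in the shared range of gene numbers, 1734 to 2975. Tyrobp, a signalling adaptor of myeloid and natural killer cells, was found in 7 of 17 cells with C1qc and 5 of 15 without (0.83). Fcer1g, an adaptor chain of Fc receptors, was found in 17 of 17 and 14 of 15 (0.48), and Sirpa in 7 of 17 and 3 of 15 (0.64). Among members of the list too rare to compare, Cybb was found in 4 of 17 cells with C1qc and 0 of 15 without, and Csf2ra in 1 and 3.

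Of 14 lysosome and cathepsin genes compared, 1 was higher and 2 lower by 1 or more, with a median of 0.16. Cst3, which encodes the protease inhibitor cystatin C, had a difference of 1.56, and cell 33 held 78.3% of its sum in cells with C1qc, at 18359 TPM. Ctsc, which encodes the protease cathepsin C, was lower by 2.03 on the log2 scale in cells with C1qc: it was found in 9 of 17 of them and in 12 of 15 cells without. Lamp2, a lysosomal membrane protein, was found in 6 of 17 cells with C1qc and 10 of 15 without (-1.72). Ctss, a protease that trims the invariant chain in antigen presentation, was found in 16 of 17 and 12 of 15 (0.91).

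Of 18 other complement genes, 12 were listed at 0 in all 32 cells, as most genes of the tables were absent from these cells. The 5 compared included 2 higher by 1 or more and none lower (median 0.14). Cfp, which encodes properdin, a stabiliser of the alternative pathway, was found in 5 of 17 cells with C1qc and 1 of 15 without (1.18). Calr, which encodes calreticulin, a chaperone that binds C1q, was found in 15 of 17 and 10 of 15 (1.25). Calr reached 3365 TPM in cell 28 and was lower by 0.99 in cells with C1qc when the 14 cells with 1 gene at 20% or more of all TPM were left out, a choice made after the data were seen, under which the median of all genes was -0.49. C1qbp, a mitochondrial protein named for its binding of C1q, was found in 4 cells of each set.

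MHC class II transcripts were present in nearly every cell of both sets. Cd74, the invariant chain, was found in all 32 cells: its TPM ran from 115 through a median of 1244 to 3747 in cells with C1qc, and from 111 through 1005 to 2728 in cells without (difference 0.29). H2-Ab1, the beta chain of I-A, was found in 17 of 17 cells with C1qc (interval 80.5% to 100%) and 13 of 15 without (86.7%, interval 59.5% to 98.3%). Its TPM ran from 16.9 through 267 to 1246 in cells with C1qc, and from 0 through 379 to 2519 in cells without. The mean log2 value of H2-Ab1 was higher by 0.76 in cells with C1qc, while its median TPM and its mean TPM, 452 with and 523 without, were the lower ones there.

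H2-Aa, the alpha chain of I-A, was found in 13 of 17 cells with C1qc and 13 of 15 without. Its TPM ran from 0 through a median of 115 to 1527 in cells with C1qc, and from 0 through 145 to 396 in cells without (difference -0.36). H2-Eb1, the beta chain of I-E, was found in 11 of 17 and 10 of 15 cells (-0.69). Ciita, the master regulator of the class II genes, was found in 1 of 17 cells with C1qc and 3 of 15 without, and Rfxank, a subunit of the factor that binds class II promoters, in 7 and 3 (1.22). Its fellow subunits Rfxap (2 of 17 and 3 of 15, -0.95) and Rfx5 (2 in each set, -0.22) had differences below 0. H2-DMa, part of the complex that loads peptides, was found in 3 and 2 cells (0.22), and H2-Oa, part of the complex that restrains it, in 2 and 0.

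Of 18 MHC class II genes, 7 were compared: 1 was higher by 1 or more, none was lower, and the median was 0.22. It was -0.12 without cell 11, -0.11 without cell 35 and -0.01 without cell 3, and -0.19 in the shared range of gene numbers. The summed class II TPM ran from 242 through a median of 2032 to 7392 in cells with C1qc, and from 168 through 1765 to 4867 in cells without. Divided by the common-gene level, it stood between 717 and 2755 with a median of 1568 in cells with C1qc, and between 692 and 2440 with a median of 1492 in cells without. The 2 sets overlapped over most of these divided ranges. In undivided TPM, cells 21 and 16 with C1qc, at 7392 and 5816, lay above every cell without it.

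ILC3 genes were found in most cells of both sets. Il23r, the receptor through which IL-23 acts on these cells, was found in 14 of 17 cells with C1qc and 13 of 15 without (-0.50), Ccr6 in 15 and 14 (-0.27) and Kit, the stem cell factor receptor, in 14 and 13 (-0.72). Ltb, a lymphotoxin chain, was found in all 32 cells, with a median of 876 TPM in cells with C1qc and 1345 TPM in cells without (-0.01). The per-cell number of ILC3 genes was 8 to 17 with a median of 13 in cells with C1qc, and 9 to 18 with a median of 12 in cells without.

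Of 22 ILC3 genes, 18 were compared: 3 were higher by 1 or more, none was lower, 11 had a difference below 0 and the median was -0.10, or 0.05 without cell 25 and 0.11 without cell 33, which had C1qc. It was 0.11, 0.01, 0.05 and 0.02 without cells 1, 3, 19 and 38, which did not. The 3 were Pram1, an adaptor protein known from myeloid cells, in 13 of 17 and 8 of 15 cells (1.61), Il22 (1.43) and Batf, a transcription factor of the AP-1 family, in 7 and 4 (1.01). Il22, which encodes the main ILC3 cytokine, was found in cells 13, 15, 40, 35, 11 and 33 with C1qc at 576, 267, 105, 75.1, 58.5 and 20.5 TPM, and in cells 1 and 3 without C1qc at 162 and 129 TPM. That is 35.3% (interval 14.2% to 61.7%) and 13.3% (interval 1.66% to 40.5%), which overlap, and the difference was -0.36 without the 14 cells dominated by 1 gene, a setting in which the median of all genes was -0.49. Csf2 (1 and 3 cells), Tnfsf11 (3 and 1), Ahr (3 and 3) and Ncr1 (5 and 5) were rare in both sets. Summed ILC3 TPM per common-gene level was nearly constant, 2538 to 5064 with a median of 4070 in cells with C1qc, and 3058 to 4884 with a median of 3944 in cells without.

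The identity shared by ILCs of every kind was present in both sets. Id2, Il7r, Il2rg, Rora, Ptprc and Itgb7 were found in all 32 cells, with differences between -0.32 and 0.29. Il7r encodes CD127, on which the cells were sorted, and Ptprc encodes CD45. Of 15 core ILC genes compared, 2 were higher by 1 or more and none lower, with a median of 0.06. They were Cd7, a lymphoid surface protein, in 15 of 17 and 10 of 15 cells (1.60), and Thy1, a lymphoid surface marker, in 4 and 1 (1.13). Gata3, a factor of ILC development, was found in 12 and 10 cells (0.12). Runx1 and Hoxa9, haematopoietic factors listed apart from the core ILC genes, were found in 13 and 10 (0.34) and in 12 and 6 (1.25). The source of their transcripts was not tested.

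**Figure D3:**
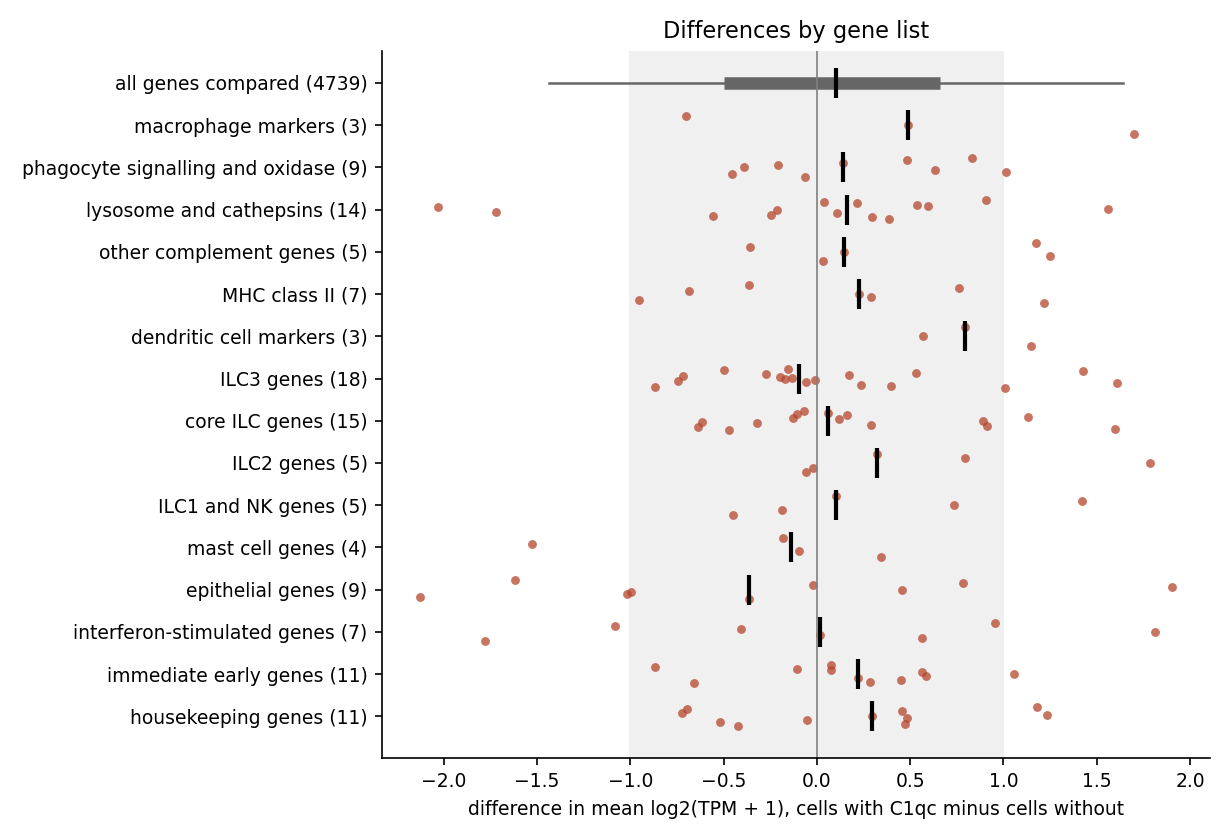
Each dot is 1 compared gene, placed by its difference in mean log2(TPM + 1) between cells with and without C1qc; black ticks are medians, and the top bar gives the 25th to 75th (thick) and 5th to 95th (thin) percentiles of all 4739 genes. The ILC3 genes centre on -0.10, MHC class II on 0.22 and the macrophage markers on 0.49, all within the thick bar.

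Transcripts that mark other cell types were present in both sets. Of the mast cell protease genes, 3 were found in almost every cell: Tpsb2 in 16 of 17 cells with C1qc and 15 of 15 without (-0.18), Cpa3 in 15 and 15 (-1.53) and Cma1 in 15 and 13 (-0.10). Mcpt4 was found in 5 of 17 and 3 of 15 cells (0.34) and Tpsab1 in 1 of each set. Of 11 mast cell genes, 4 were compared and 4, Mcpt1, Mcpt2, Ms4a2 and Hdc, were listed at 0 in all 32 cells. Their summed TPM ran from 80.7 to 4659 in cells with C1qc and from 67.3 to 4002 in cells without. Their part in the differences was not tested.

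Epithelial genes reached 1% of all TPM or more in 5 of 17 cells with C1qc and 6 of 15 without. Of 9 epithelial genes compared, 1 was higher and 3 lower by 1 or more, with a median of -0.36. The sum of the list ran from 37.3 through a median of 1043 to 230583 TPM in cells with C1qc, and from 51.6 through 1285 to 435978 TPM in cells without, while Cdh1 and Muc2 were listed at 0 in every cell. Single cells carried much of this: Apoa4, an enterocyte lipoprotein gene (-2.13), took 139115 TPM in cell 3 and Krt8, a keratin (-1.62), 122197 TPM in cell 8, both without C1qc, while Fabp2, a fatty acid carrier (1.90), took 15419 TPM in cell 33 with C1qc. The part of the epithelial transcripts in the differences was not tested.

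The smaller lists gave single genes. Xbp1, the factor of secretory stress and plasma cells, was found in 17 of 17 cells with C1qc and 10 of 15 without (2.07) and was the one B cell or plasma cell gene compared. Ly6a, the surface protein Sca-1, was found in 12 and 6 cells (1.79) and Klrb1b, a lectin-like receptor of natural killer cells and ILCs, in 17 and 12 (1.42). Of the T cell genes, Lat, an adaptor of antigen receptor signalling, was found in 9 and 12 cells (-1.63) and Cd3g in 5 and 4 (0.28). Of 7 interferon-stimulated genes compared, Irf1 was higher (10 and 4 cells, 1.81) and Gbp2 (1 and 6 cells, -1.78) and Zbp1 (2 and 4, -1.08) were lower. Of 11 housekeeping genes, Tpt1 (1.23) and Gapdh (1.18) were higher by 1 or more, and of 11 immediate early genes, which respond to cell handling, Egr1 was higher (1.06), with a list median of 0.22. Dendritic cell genes (3 compared, median 0.79) included Cd24a in 6 of 17 and 1 of 15 cells (1.15). Flt3, Irf8, Zbtb46, Xcr1 and Cd209a each reached 1 TPM in 1 to 4 of the 32 cells.

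The largest differences in detection were in genes outside the macrophage, MHC class II and ILC3 lists. These lists gave only 3, 7 and 18 of the 4739 genes compared, so their absence here says little about them. Crtap, a partner of an enzyme that modifies collagen, was found in 8 of 17 cells with C1qc and 0 of 15 without (interval up to 21.8%). Bckdha, a subunit of the enzyme that breaks down branched amino acids, and Nck1, an adaptor of actin signalling, were each found in 10 of 17 and 1 of 15. Rnf166, a ubiquitin ligase, was found in 8 of 17 cells with C1qc and in all 15 without, with a median of 0 TPM and 110 TPM and the largest negative difference of all genes compared, -4.12. Dnajc5, a chaperone of secretory vesicles, was found in 2 of 17 and 10 of 15. These 5 are the named genes whose exact intervals do not overlap, out of 114 named by the rule. They were picked as extremes out of 4739, so the gap between their intervals is no evidence of a difference.

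Ndufa8, a subunit of respiratory complex I, had the largest positive difference, 4.12, and was found in 12 of 17 cells with C1qc and 3 of 15 without. Ndufc2, of the same complex, was found in 13 and 4 cells (3.03), but its mean TPM was 171 with C1qc and 718 without, since 1 cell without C1qc held 9884 TPM. Atp6v0b, a part of the proton pump that acidifies lysosomes, was found in 11 and 2 cells (3.36). Tmod3, which caps actin filaments (13 and 4), Tra2b, a splicing factor (14 and 5), Smpdl3a, a phosphodiesterase (9 and 1), and Golph3, a Golgi protein (9 and 1), completed the 10 genes more often found with C1qc. Cell 41 held 95.8% of the Tra2b of its set. The genes more often found without C1qc also included Dap (8 and 14 cells, -3.03), Eif4b, a translation initiation factor (6 and 12, -2.36), Sdf2, Tbcc and Ogdh (4 and 10 each), and Rnf146, Ftsj3 and Psmd2, a proteasome subunit (3 and 9 each). In all, 31 genes had a detection share at least 40 percentage points higher in cells with C1qc and 19 a share at least 40 points lower.

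**Figure D4:**
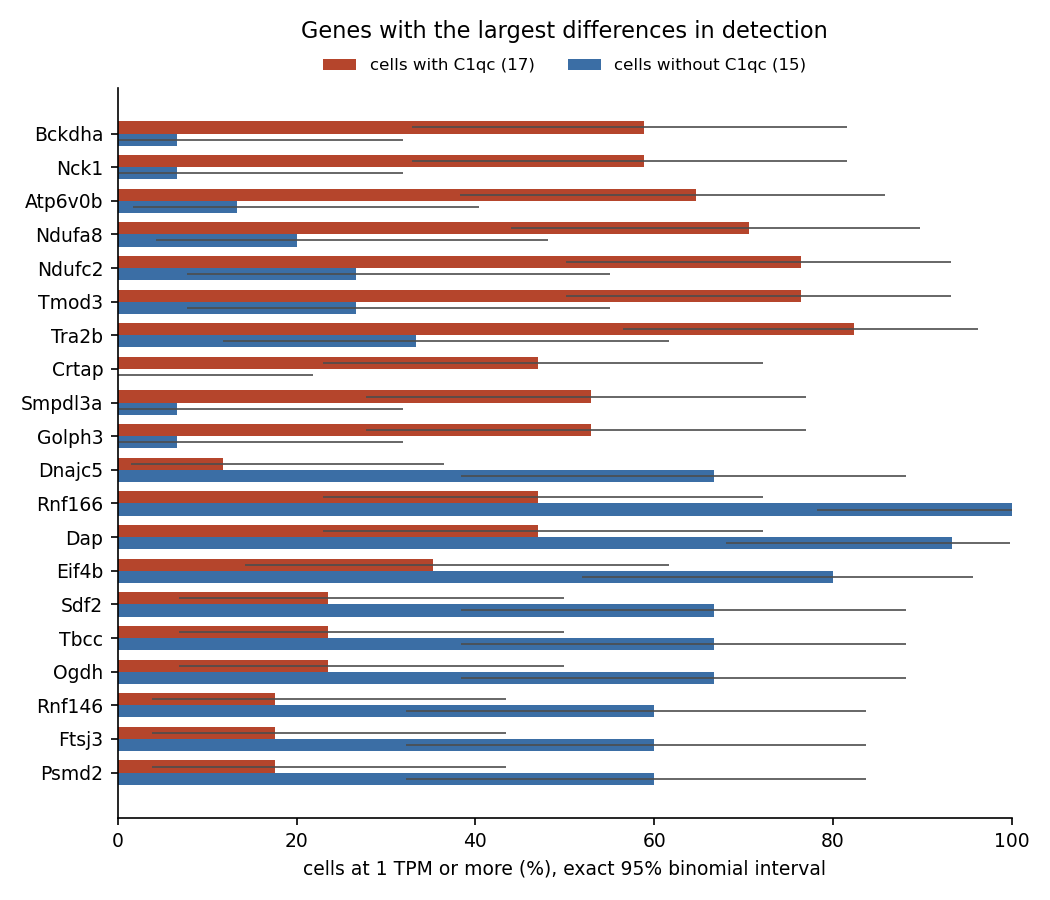
Bars give the percent of cells at 1 TPM or more, with exact 95% binomial intervals, for the 10 genes with the largest detection difference in each direction, cells with C1qc above cells without. Crtap is at 0 of 15 without C1qc and Rnf166 at 15 of 15.

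The other samples of the series show these genes in cells that the split did not use. Counts are given for the 17 cells with C1qc, the 15 without, the 35 regenerated cells whose titles end in 1, and the wild-type cells. The 31 wild-type columns held 8 groups of columns with r from 0.844 to 0.995 in genes found in both, against 0.738 for the next pair, so such columns were averaged and counted once, leaving 22 wild-type cells. The wild-type table is a separate file, its cells stem from other mice and the meaning of the title endings is not stated, so these differences cannot be told apart from library effects and were not tested.

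C1qc itself was found in 1 of 35 regenerated cells ending in 1, at 2.50 TPM, and in 6 of 22 wild-type cells. In the wild-type columns it stood at 1268 TPM in 1 and at 1.29 to 19.5 TPM in the others that had it. C1qb was found in 8 of 17, 5 of 15, 0 of 35 (interval up to 10.003%) and 6 of 22 cells, and C1qa in 5, 5, 1 and 1. Lyz2 was found in 17 of 17, 14 of 15, 10 of 35 and 7 of 22, and Apoe in 9, 5, 1 and 6. H2-Aa was found in 13, 13, 3 and 5 cells, H2-Ab1 in 17, 13, 11 and 9, and Cd74 in 17, 15, 26 and 17. For each of these genes other than C1qc the detection shares of both sets lie above those of the cells ending in 1, whether C1qc was found or not. This does not hold for the macrophage and MHC class II lists as a whole. Fcgr3 was found in 3, 1, 11 and 9 cells, Aif1 in 1, 0, 5 and 4, Ifi30 in 1, 0, 15 and 3, and Rfxap in 2, 3, 16 and 8.

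Tpsb2 went furthest in being found more often in both sets: 16 of 17, 15 of 15, 0 of 35 and 0 of 22 cells. The exact interval for the 35 reached up to 10.003%. The ILC3 genes named next were found in most cells throughout: Il23r in 14 of 17, 13 of 15, 33 of 35 and 20 of 22 cells, and Ccr6 in 15, 14, 31 and 19. Detection at 1 TPM does not show height, and many of the values in the cells ending in 1 were low. In the same order of groups, median Ccr6 was 113, 126, 3.36 and 32.5 TPM and median Cd74 1244, 1005, 3.35 and 32.6 TPM. Median Ltb was highest in the cells ending in 1, at 876, 1345, 5064 and 1504.5 TPM. Il22 was found in 6 of 17, 2 of 15, 13 of 35 and 6 of 22 cells.

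**Figure D5:**
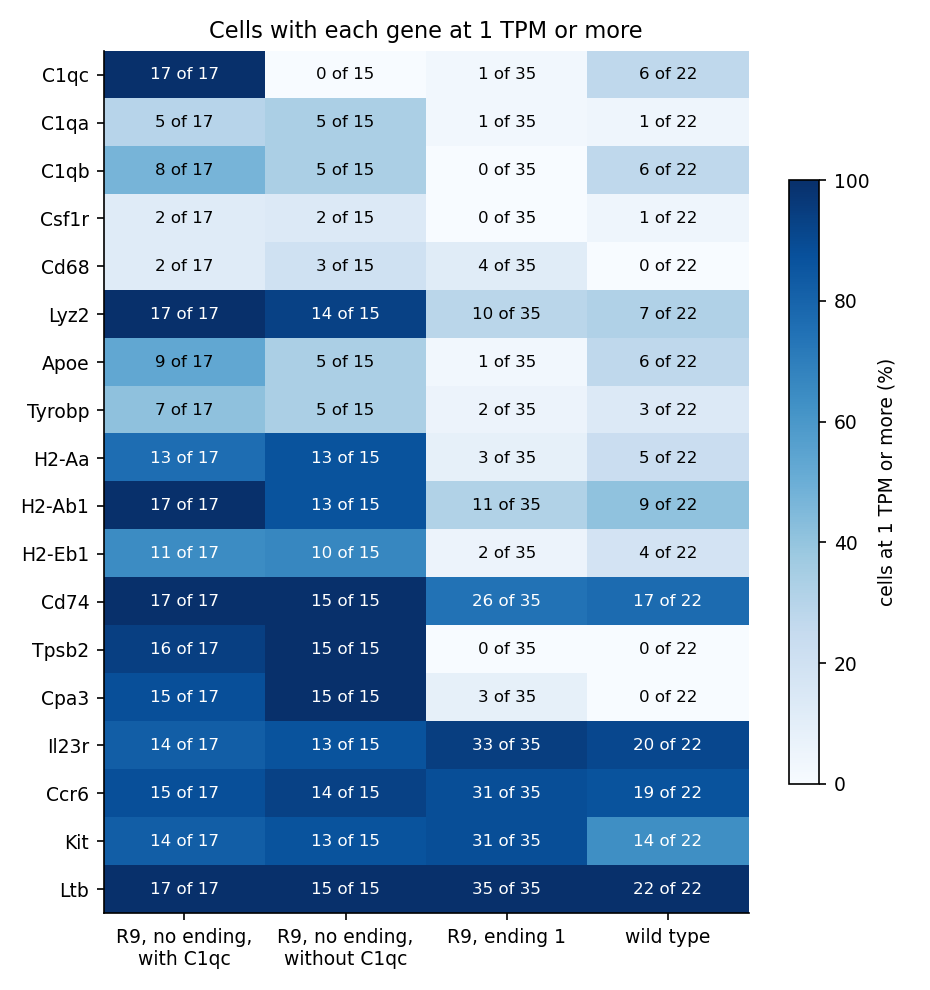
Shading and text give the cells with each gene at 1 TPM or more, with genes in rows and, left to right, the 17 regenerated cells with C1qc, the 15 without, the 35 ending in 1 and the 22 wild-type cells. Lyz2, H2-Ab1 and Tpsb2 are found in nearly all cells of both sets on the left and in fewer or no cells on the right, and Ltb in all cells throughout.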

How the data were processed

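Single-cell TPM tables, 2 in number, were used as the authors deposited them. Per the submitters' processing notes StringTie 1.3.4, HISAT2 2.1.0, bcl2fastq and SAMtools 0.1.19 were used, with build mm10; per the labels' protocols libraries were made with Vazyme Discover-sc WTA V2 and TruePrep V2 kits. TPM of each column sums to a fixed total, so a gene that takes much of a library lowers all others, and the depth is not recoverable.

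Each cell's column was matched by its title; all columns were used, and 1 wild-type column was matched to its group only. A gene counted as detected at 1 TPM; genes at 1 TPM in at least 5 of 32 cells were compared by mean log2(TPM + 1), and a difference of 1 was the size counted. Intervals are exact Clopper-Pearson intervals at 95%. No clustering was done and doublets were not sought. The script was tested on simulated data. Work was done in Python 3.11.15 (pandas 2.3.3, numpy 2.4.6, matplotlib 3.10.9, scipy 1.17.1), with positions from the GENCODE M21 annotation of GRCm38, the same build as mm10.

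The 32 cells, the split and the 23 gene lists were chosen with earlier results of these data known. Named genes were every C1q, macrophage, MHC class II and ILC3 gene found in at least 3 cells, up to 4 genes of each other list by size of difference, and the 10 largest detection differences in each direction without predicted and ribosomal protein genes. Genes outside this rule are named as members of a list. Adgre1, Spi1, C1s1, Jchain, Hbb-bs and Hbb-bt were not analysed here. Wild-type columns with r of 0.8 or more were joined, a limit set after the data were seen. Alternatives were the pseudocount, the C1qc limit, the filters on genes and cells, a rescaling by common genes and leaving out each cell in turn. Some list members are not reported here.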

Additional observations from a re-analysis of the deposited data

Results flagged for a closer look

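The highest C1qc of the series was in a wild-type column outside the split, number 23-2, at 1268 TPM, above the 449 TPM of the highest regenerated cell. It was set aside for a closer look because it is a signal outside the comparison. The same column had C1qb at 1695 TPM, Tyrobp at 1708, Apoe at 1518, Aif1 at 584, Cd74 at 2517 and H2-Ab1 at 2189 TPM, with Ccr6 at 1922 and Id2 at 2584 TPM, and C1qa was listed at 0. Il23r was at 8.61 TPM in it. In the regenerated cell with the most C1qc, cell 16, Tyrobp was at 1188 TPM and Apoe at 485 TPM, and Aif1 was listed at 0. The cause was not tested.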

How the results depend on the processing

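The count of 725 of 4739 genes higher by 1 or more with C1qc became 1245 of 4739 with a pseudocount of 0.1 TPM and 149 of 4739 with 10 TPM. With genes in at least 10 cells it became 456 of 2447, so the fall in count is not a fall in share. The count of 529 lower genes became 911, 121 and 318 under these, and 806 in the shared range of gene numbers (17 against 11 cells). Leaving out each of the 32 cells in turn gave 642 to 818 higher and 461 to 616 lower genes. The limit of 100 TPM, with and without rescaling, the split by any chain, the removal of cells dominated by 1 gene and leaving out cells without C1qc were chosen after seeing the data. With a C1qc limit of 100 TPM (10 against 22 cells), 1679 genes were higher and 305 lower, the median of all genes moved to 0.59, and the macrophage, MHC class II and ILC3 medians to 2.11, 1.33 and 1.47. With the same limit after rescaling each cell by its common genes they were 0.71, 0.07 and 0.40 beside 0.16 over all genes, with 841 higher and 511 lower. With any C1q chain against none (25 against 7 cells), 1448 were higher, and the macrophage median was 1.61 beside 0.47 over all genes. Without the cells in which 1 gene held 20% or more of TPM (9 against 9), 3012 genes were compared, 387 higher and 999 lower. All genes then had a median of -0.49, the macrophage markers 0.88, the MHC class II genes -0.56 and the ILC3 genes -1.21. The macrophage median was 1.09 with genes in at least 10 cells and 0.74 in the shared range of gene numbers (-0.08 over all genes). As each cell was left out, the macrophage median ran from -0.07 to 1.35, the MHC class II median from -0.12 to 0.36 and the ILC3 median from -0.21 to 0.11. No C1qc limit up to 10 TPM changed a value.

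Of 114 named genes, 64 had the opposite sign under 1 or more settings that left no single cell out. Among the 52 with a difference of 1 or more, 15 did. Under any chain against none, Clec7a (0.71), Apoa4 (1.17), Krt8 (1.53), Apoa1 (0.83), Lat (1.37), Gbp2 (0.36), Tpt1 (-0.33), Gapdh (-0.51), Rnf146 (0.95) and Ftsj3 (0.86) did. Without the cells dominated by 1 gene, Il22 (-0.36), Calr (-0.99), Vim (-0.38) and Tpt1 (-0.87) did, in the shared range of gene numbers Itgb2 (-0.15), and at the 100 TPM limit Cd24a (-0.77). After rescaling at that limit Cd24a (-1.03) and Tpt1 (-0.48) did. The cause was not tested. No cell had over 4000 genes, so leaving such cells out changed nothing. No paired analysis was possible because each title number names 1 of the 32 cells and none occurs in both sets. Depth is unknown in TPM, and 17 and 15 cells limit every share to wide intervals.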

Other observations

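Isg15, an interferon-induced modifier, was looked at after its values were seen, since it missed the filter on rare genes. It was found in 0 of 17 cells with C1qc and 3 of 15 cells without. It stood at 91506 TPM in cell 4, 11221 TPM in cell 37 and 85.7 TPM in cell 39. Hba-a2, a globin chain of red blood cells, was found in 12 of 17 cells with C1qc and 8 of 15 without, with its highest values, 4168 TPM and 10989 TPM, in 1 cell of each set. The source of these transcripts was not tested.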
